A study of Mus musculus with 12 samples.

Results

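Transcripts of 9 co-stimulatory receptor genes were followed in mouse T cells kept with partner cells that did or did not carry a hairpin against Fabp7. The genes were taken by symbol from a table of 53762 gene symbols, and all 9 were found and passed the filter on low counts, which left 16945 genes for testing. They were Cd28 and Icos of the immunoglobulin family, Cd27, Tnfrsf4, Tnfrsf8, Tnfrsf9, Tnfrsf18 and Tnfrsf1b of the tumour necrosis factor (TNF) receptor family, and Slamf1 of the SLAM family. The T cells came from spleen, and the partner cells, which the labels call Res and the series title places among cancer cells, carried shFabp7 (Res_shFabp7) or a control construct (Res_ctrl). The 4 groups of 3 libraries were T cells kept with Res_shFabp7 for 48 h, with Res_ctrl for 48 h, with Res_shFabp7 for 24 h and with Res_ctrl for 24 h. All cells had been cultured in RPMI-1640 with antibiotics and heat-inactivated serum. The study set out to find T cell genes that change with the hairpin in the partner. The sources used here do not give the strain, age or number of the mice, the identity of the partner line or any activation of the T cells. Nothing says that the libraries of a group came from separate cultures or mice, so a p-value may cover technical spread alone.

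A T cell that meets its antigen needs a further signal from co-stimulatory receptors to divide, survive and secrete cytokines. CD28, present on resting T cells, binds CD80 and CD86 and recruits phosphoinositide 3-kinase, and ICOS is its relative that appears after activation. The TNF receptor family members recruit TRAF adaptors and turn on NF-kB. Among them CD27 is carried by resting cells, whereas OX40 (Tnfrsf4), 4-1BB (Tnfrsf9) and CD30 (Tnfrsf8) are induced by activation, and GITR (Tnfrsf18) and TNF receptor 2 (Tnfrsf1b) are also abundant on regulatory T cells.

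Library totals ran from 31952873 to 40638685 counts. The 9 genes had between 579 and 15056 counts in a library. Per the GENCODE annotation (GRCm38), 4 of them share part of their locus, taken from gene start to gene end, with another gene. These are Tnfrsf9 with Camta1, Tnfrsf18 with Gm16008 and Cd27 with Vamp1, each on the other strand, and Cd27 with Mir8113 and Icos with Gm37039 on the same strand. Whether exons overlap was not checked, so it is not known whether any counted reads were affected. Levels are given as CPM, counts divided by the library total after TMM scaling, which corrects for RNA composition. The labelled cell type was checked with 10 T cell markers (Cd3e, Cd3d, Cd3g, Cd2, Cd5, Thy1, Cd4, Cd8a, Cd8b1 and Lck). All were detected in each group, and their summed level was 3031 to 3090 CPM with shFabp7 and 2853 to 2991 CPM with the control partner at 48 h, and 3290 to 3469 CPM with shFabp7 and 3377 to 3412 CPM with the control partner at 24 h. Summed markers of B cells, monocytes and macrophages, neutrophils, dendritic cells, platelets, red cells and epithelial or mesenchymal cells reached at most 22.2, 9.62, 6.51, 16.5, 18.2, 1.81 and 11.1 CPM in any library. The natural killer list reached 168 CPM, and most of it was Eomes, which T cells also express. Ly6g and Mlana were at 0 in the control group at 24 h, Siglech in both groups at 48 h, Clec9a in the shFabp7 group at 24 h and Cd209a in all 4 groups. Each RNA sample pooled many cells, so fewer cells that express a receptor and less of its RNA per cell cannot be told apart.

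The promoter sequences of the receptors that the results turn on are given first. RefSeq promoters (GRCm38.p6, 250 bases before to 50 after the start of transcription) were matched by symbol for 7 of the 9 genes, all but Cd28 and Icos. Those of Tnfrsf8 and Tnfrsf9 are shown because these genes had the partner effects at 48 h that passed under every setting tried, and that of Cd27 because it changed most with time. Capitals mark matches, on either strand, to the NF-kB consensus (the longer run) and to the AP-1 motif TGANTCA (the shorter run).
Tnfrsf8, chr4:145315115-145315414, minus strand: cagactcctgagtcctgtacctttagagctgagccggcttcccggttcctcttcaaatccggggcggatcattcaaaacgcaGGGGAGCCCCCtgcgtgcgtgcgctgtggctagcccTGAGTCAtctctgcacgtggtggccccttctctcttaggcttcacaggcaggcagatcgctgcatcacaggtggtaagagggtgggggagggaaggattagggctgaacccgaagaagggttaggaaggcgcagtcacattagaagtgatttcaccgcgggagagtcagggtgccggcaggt
Tnfrsf9, first entry, chr4:150919905-150920204, plus strand: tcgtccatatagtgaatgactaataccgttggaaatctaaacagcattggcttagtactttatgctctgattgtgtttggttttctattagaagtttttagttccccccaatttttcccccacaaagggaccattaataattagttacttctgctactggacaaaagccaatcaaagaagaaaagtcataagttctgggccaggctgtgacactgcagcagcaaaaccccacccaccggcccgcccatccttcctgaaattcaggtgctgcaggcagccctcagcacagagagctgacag
Tnfrsf9, second entry, chr4:150927749-150928048, plus strand: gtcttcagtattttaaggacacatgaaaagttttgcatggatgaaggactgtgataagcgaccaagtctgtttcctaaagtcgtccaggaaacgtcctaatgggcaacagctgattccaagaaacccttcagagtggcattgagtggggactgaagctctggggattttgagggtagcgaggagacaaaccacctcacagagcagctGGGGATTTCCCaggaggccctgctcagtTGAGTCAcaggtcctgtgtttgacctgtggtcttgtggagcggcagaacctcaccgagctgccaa
Cd27, chr6:125236978-125237277, minus strand: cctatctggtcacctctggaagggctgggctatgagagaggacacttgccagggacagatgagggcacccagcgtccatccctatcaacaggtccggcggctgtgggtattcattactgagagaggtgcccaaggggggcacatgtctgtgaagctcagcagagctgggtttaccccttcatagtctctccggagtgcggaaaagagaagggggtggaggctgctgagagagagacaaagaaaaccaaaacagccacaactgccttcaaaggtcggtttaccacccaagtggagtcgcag
The NF-kB consensus was found in 8.46% and TGANTCA in 7.81% of 32851 promoters of the same length. Both occurred in the promoter of Tnfrsf8 and in the second entry of Tnfrsf9, and neither occurred in the first entry of Tnfrsf9 or in the promoters of Cd27, Tnfrsf4, Tnfrsf18, Tnfrsf1b and Slamf1. Within each promoter the matches to the NF-kB consensus overlapped each other and did not overlap the AP-1 match. The core GGAAA of NFAT sites, found in 61.3% of promoters, occurred in every entry except those of Tnfrsf8 and Tnfrsf1b. In the second Tnfrsf9 entry a GGAAA match on the minus strand lay inside the NF-kB match. These are matches of letters and were not tested as sites.

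At 48 h, CD30 and 4-1BB transcripts were higher in T cells co-cultured with shFabp7 cells. Tnfrsf8 was 1.38-fold and Tnfrsf9 1.19-fold higher, Cd28 and Tnfrsf4 were higher by smaller amounts, and Tnfrsf1b was lower. In all, 4 of 9 receptors were higher and 1 was lower with shFabp7 (edgeR quasi-likelihood, adjusted p under 0.05). That is 5 of 9 against a background of 31.6% of all tested genes, with 19.9% higher and 11.6% lower. The count was 3 without control replicate 1, shFabp7 replicate 1 or shFabp7 replicate 3, and 2 without shFabp7 replicate 2. The members' median log2 fold change was 0.12, against 0.01 over all tested genes, and their median absolute change of 0.14 was below the 0.21 of all tested genes. Here and below, the background also holds weakly counted genes, whereas each receptor had at least 579 counts in every library. Of the 16945 tested genes 12835 averaged at least 1 CPM, and no background matched for level was used. In 6 of 9 receptors the 2 groups did not overlap, where 44.0% of all tested genes did not.

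**Figure D1:**
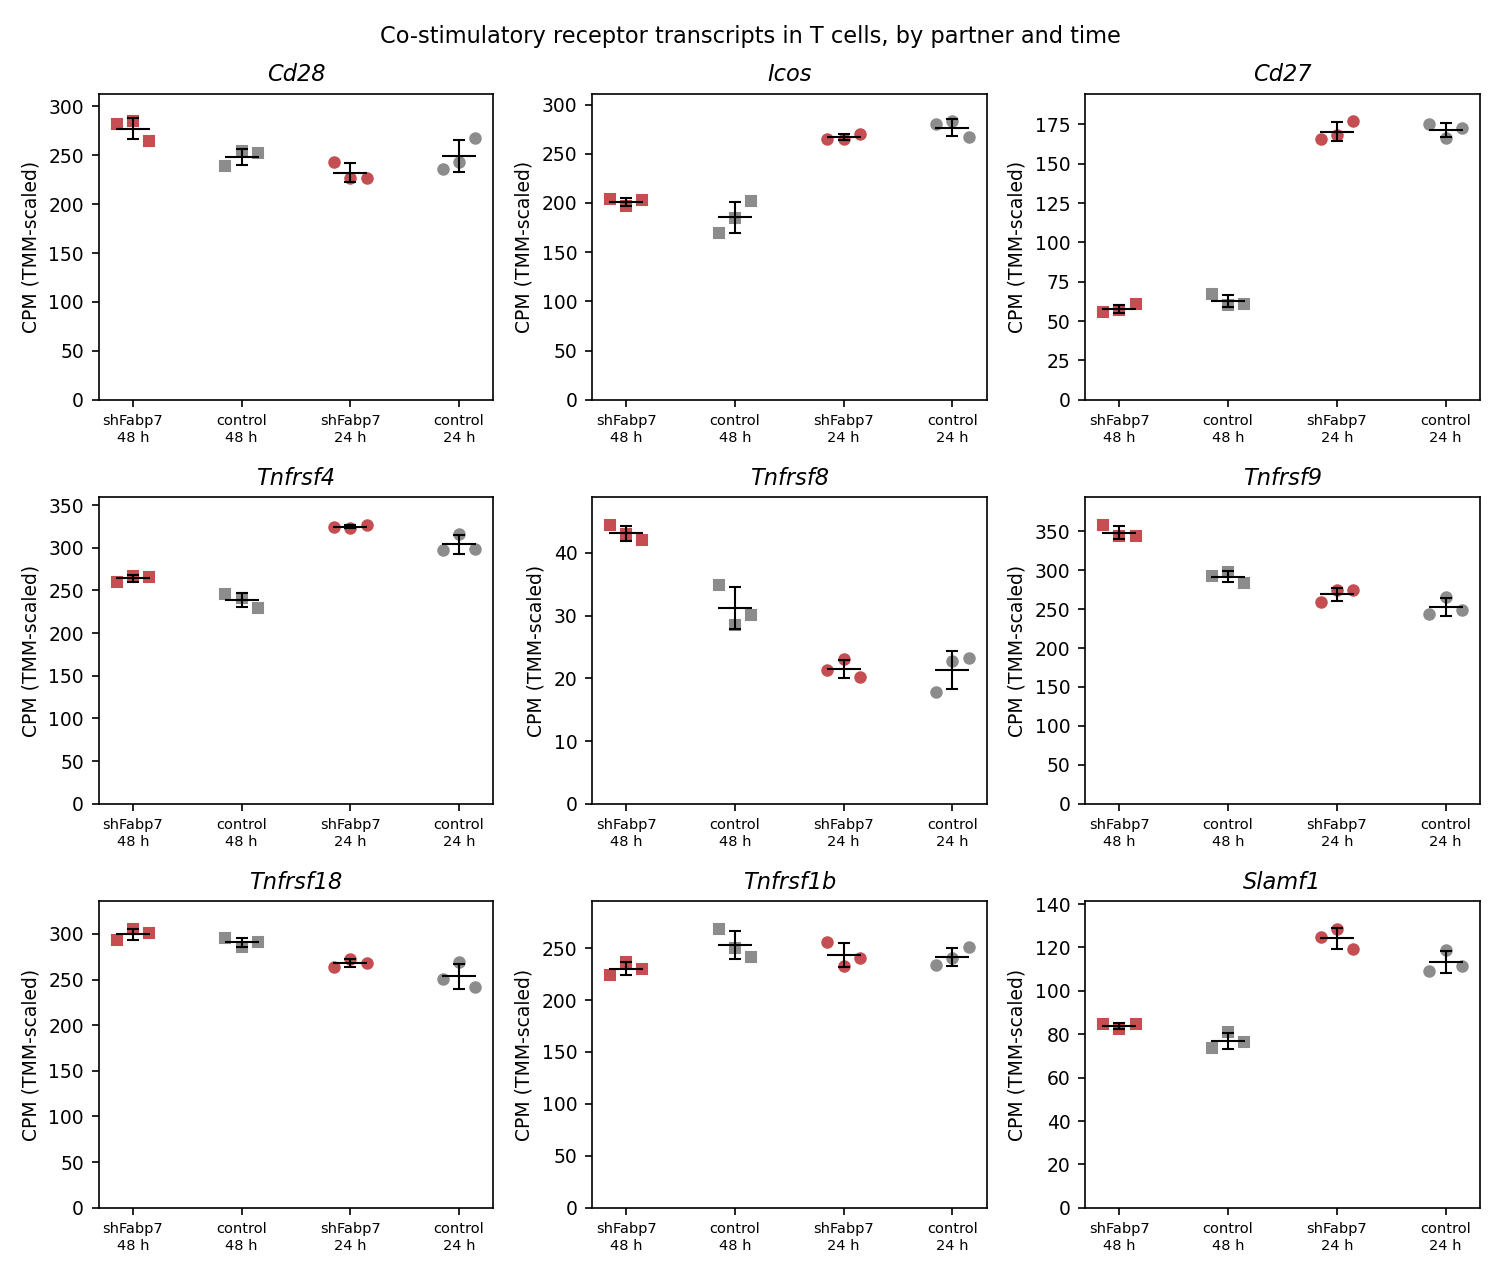
Level of each receptor transcript in CPM (TMM-scaled, linear axis from 0) in the 12 libraries; points are libraries, bars the mean ± SD of 3 libraries, squares 48 h and circles 24 h, red the shFabp7 and grey the control partner. The Cd27 panel shows 55.8 to 67.2 CPM at 48 h below 166 to 177 CPM at 24 h, and the Tnfrsf8 panel shows the 3 shFabp7 libraries at 48 h above all others.

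Tnfrsf8 encodes CD30, a TNF receptor of activated T cells. It had 44.4, 43.0 and 42.0 CPM in the 3 libraries with the shFabp7 partner at 48 h, against 34.9, 28.6 and 30.1 CPM with the control partner. It had 21.4, 23.0 and 20.2 CPM at 24 h with the shFabp7 partner, against 17.8, 22.8 and 23.3 CPM with the control partner. The partner groups were apart at 48 h and overlapped at 24 h. The log2 fold change at 48 h was 0.47 ± 0.08 (SE, adjusted p = 4.1e-05), and it passed in 14 of 14 other settings, at log2 values from 0.38 to 0.55.

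Tnfrsf9 encodes 4-1BB, a survival receptor best known on CD8 T cells. It had 358, 344 and 343 CPM at 48 h with the shFabp7 partner, against 293, 298 and 284 CPM with the control partner. At 24 h it had 259, 274 and 274 CPM with the shFabp7 partner, against 243, 265 and 248 CPM with the control partner. Every shFabp7 library exceeded every control library at 48 h, and the groups overlapped at 24 h. The log2 fold change at 48 h was 0.26 ± 0.05 (adjusted p = 1.2e-04) and passed in 14 of 14 other settings.

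Cd28 had 282, 285 and 265 CPM at 48 h with the shFabp7 partner, against 239, 254 and 252 CPM with the control partner. At 24 h it had 243, 227 and 227 CPM with the shFabp7 partner, against 236, 244 and 267 CPM with the control partner. The groups were apart at 48 h only, with shFabp7 higher (log2 0.16 ± 0.05, adjusted p = 0.0209). The call was lost without control replicate 1 (adjusted p = 0.0552), shFabp7 replicate 1 (0.0778) or shFabp7 replicate 2 (0.105), and with upper-quartile scaling (0.332) or library totals as scaling (0.315).

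Tnfrsf4 encodes OX40, which prolongs the response of activated CD4 T cells. It had 260, 267 and 266 CPM at 48 h with the shFabp7 partner, against 246, 241 and 230 CPM with the control partner, without overlap. At 24 h it had 324, 324 and 326 CPM with the shFabp7 partner, against 297, 316 and 299 CPM with the control partner, again without overlap. It was higher with shFabp7 than with the control partner at 48 h (log2 0.15 ± 0.05, adjusted p = 0.0187). At 24 h the log2 fold change between the partners was 0.10 ± 0.05 with adjusted p = 0.212. The 48 h call was lost without control replicate 3 (adjusted p = 0.095), shFabp7 replicate 2 (0.0733) or shFabp7 replicate 3 (0.0633), with upper-quartile scaling (0.355), library totals (0.326) or no filter (0.0768).

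Tnfrsf1b encodes TNF receptor 2 and was the receptor called lower with the shFabp7 partner at 48 h. It had 224, 237 and 230 CPM at 48 h with the shFabp7 partner, against 268, 250 and 242 CPM with the control partner. At 24 h it had 256, 233 and 241 CPM with the shFabp7 partner, against 234, 240 and 251 CPM with the control partner. The 48 h groups were apart by a narrow margin (log2 -0.14 ± 0.05, adjusted p = 0.0383). The call was lost without any single library except control replicate 3 (adjusted p up to 0.147), with the replicate number as a block (0.0504), with DESeq2 (0.0501) and with RLE scaling (0.0663).

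The other 4 receptors did not pass at 48 h. Slamf1, a receptor that binds itself on neighbouring cells and signals through the adaptor SAP, had 84.5, 82.4 and 84.9 CPM with the shFabp7 partner, against 73.6, 81.0 and 76.3 CPM with the control partner. Its log2 fold change was 0.12 ± 0.05 (adjusted p = 0.0726, 95% interval 0.02 to 0.23), and it passed without control replicate 2 (adjusted p = 0.0423), with DESeq2 (0.0377) and with RLE scaling (0.0494). Icos had 204, 197 and 203 CPM with the shFabp7 partner, against 170, 184 and 202 CPM with the control partner (log2 0.12 ± 0.05, adjusted p = 0.0894, interval 0.01 to 0.23). Icos passed without control replicate 3, its highest control library (adjusted p = 0.0110), and with DESeq2 (0.0468).

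Cd27 had 55.8, 57.2 and 60.6 CPM at 48 h with the shFabp7 partner, against 67.2, 60.5 and 60.6 CPM with the control partner. Its log2 fold change was -0.12 ± 0.05 (adjusted p = 0.104, interval -0.23 to -0.01), and it passed as lower with upper-quartile scaling (adjusted p = 0.00398) and library totals (0.00405). Tnfrsf18, the GITR gene, had 293, 305 and 301 CPM with the shFabp7 partner, against 296, 286 and 291 CPM with the control partner. The groups overlapped (log2 0.04 ± 0.05, adjusted p = 0.565, interval -0.06 to 0.14), and its sign turned with upper-quartile scaling (-0.04) and library totals (-0.04).

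The split of calls at 48 h depended on the scaling. With DESeq2 6 receptors passed as higher and 0 as lower, and with RLE scaling 5 and 0. With upper-quartile scaling 2 receptors passed as higher and 2 as lower, as with library totals, and 2125 genes were called higher and 3195 lower (39.9% higher), against 3380 and 1972 (63.2% higher) with TMM. With library totals 2157 genes were called higher and 3168 lower (40.5% higher). Other values moved with the partner at 48 h. The 5 regulatory T cell markers (Foxp3, Ikzf2, Il2ra, Ctla4 and Lrrc32) summed to 1247 to 1311 CPM with shFabp7 and 1039 to 1053 CPM with the control partner. Most of that sum was Il2ra, which averaged 995 CPM with shFabp7 and 725 CPM with the control partner. Of the 5 genes 1 rose and 2 fell, with Il2ra higher (log2 0.46 ± 0.06, adjusted p = 8.2e-08) and Lrrc32 and Ikzf2 lower (-0.36 ± 0.08 and -0.15 ± 0.06). Foxp3 was at 0.03 ± 0.11 and Ctla4 at -0.13 ± 0.06 (adjusted p = 0.0744). Of the 10 T cell markers 2 rose and 4 fell, among them Cd8a (-0.23 ± 0.05, adjusted p = 0.00143), and Cd4 was at -0.0015 ± 0.05. The 5 neutrophil markers summed to 2.33 to 3.44 CPM with shFabp7 and 4.12 to 6.51 CPM with the control partner, and S100a8 and S100a9 fell. S100a8 averaged 0.241 CPM with shFabp7 and 1.14 CPM with the control partner. The monocyte gene Lyz2 and the platelet gene Itga2b fell as well (-0.76 ± 0.25 and -0.39 ± 0.11), from lists that summed to 3.37 to 5.32 and 11.3 to 13.3 CPM with shFabp7, and 4.27 to 7.09 and 13.1 to 18.2 CPM with the control partner. The part of these cell types in the receptor changes was not tested.

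**Figure D2:**
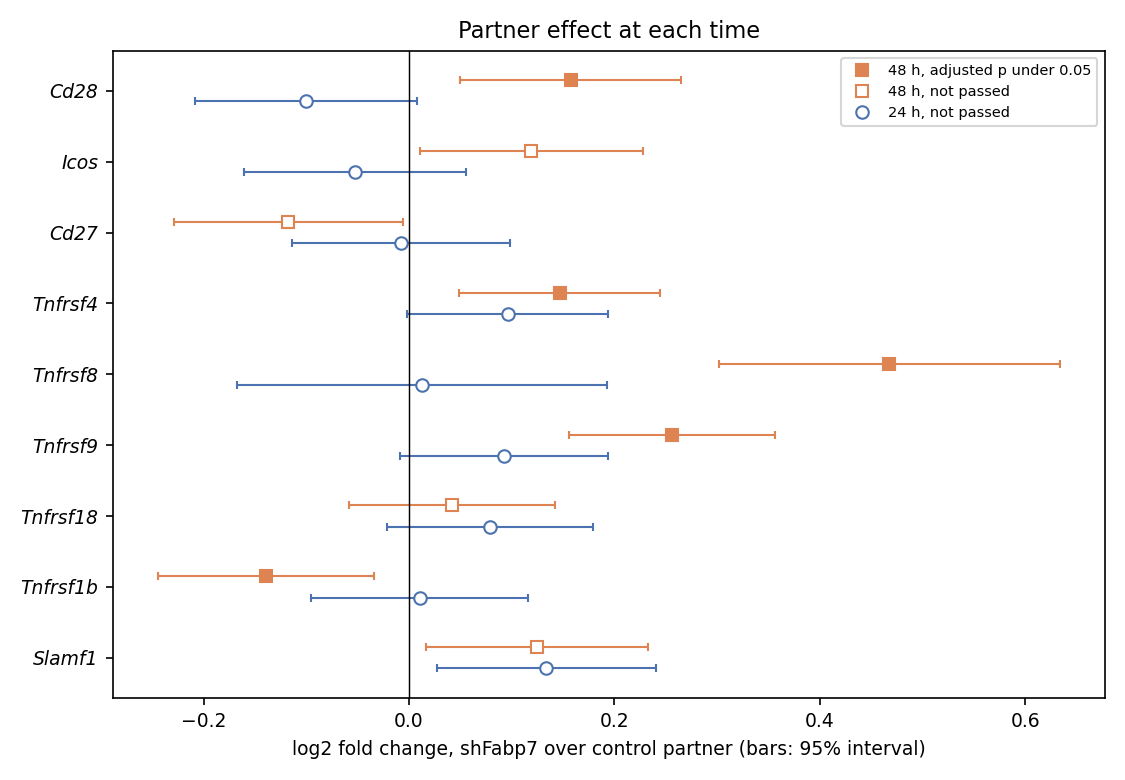
Log2 fold change of each receptor, shFabp7 over control partner, at 48 h (squares) and 24 h (circles), with 95% intervals; filled symbols passed adjusted p under 0.05. Tnfrsf8 and Tnfrsf9 lie farthest to the right at 48 h, at 0.47 and 0.26, and no receptor passed at 24 h.

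**Figure D3:**
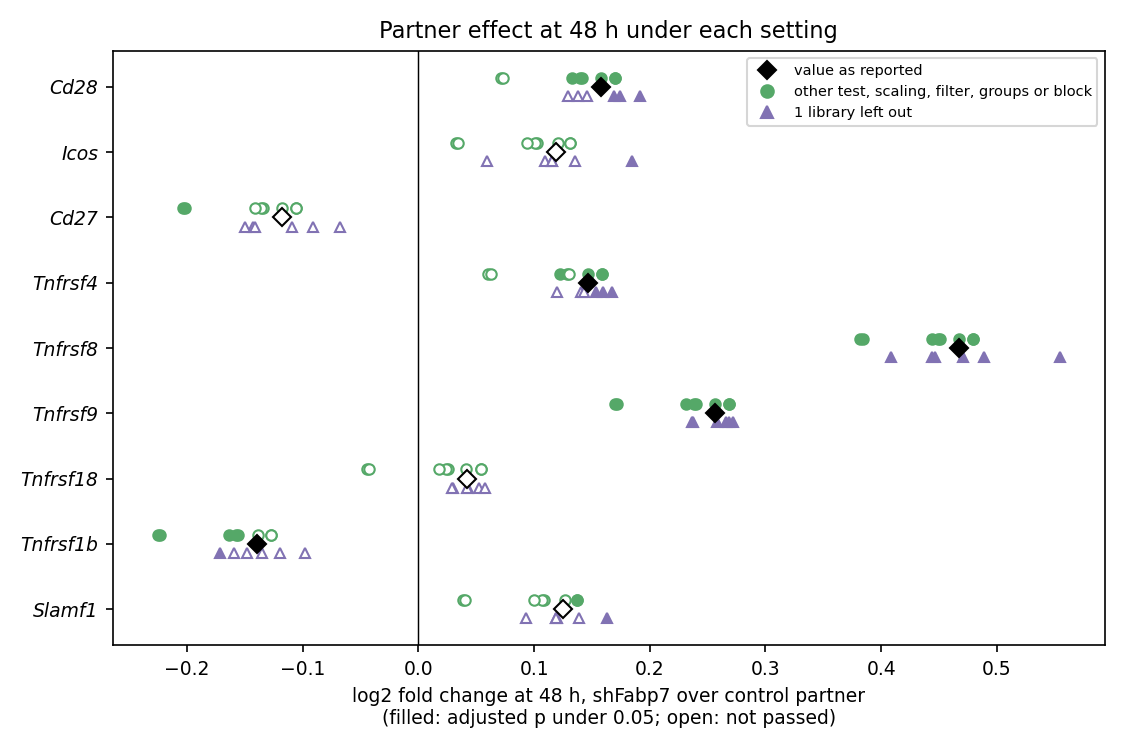
Partner effect at 48 h (log2 fold change) of each receptor as reported (diamonds), under 8 other tests, scalings, filters, sample choices or a replicate block (circles) and with 1 library left out (triangles); filled symbols passed adjusted p under 0.05. Only Tnfrsf8 and Tnfrsf9 are filled throughout, and only Tnfrsf18 crosses 0.

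At 24 h no receptor differed between the partners by the edgeR test. The count was 0 of 9, against a background of 10.9% of all tested genes (6.22% higher and 4.65% lower), with 1 receptor at an unadjusted p under 0.05 (Slamf1) and 2 receptors called by DESeq2 (Tnfrsf4 and Slamf1, adjusted p = 0.0289 and 0.0192). The groups did not overlap in 2 of 9 receptors, Tnfrsf4 and Slamf1, against 27.5% of all tested genes. Slamf1 had 125, 128 and 119 CPM with the shFabp7 partner, against 109, 119 and 111 CPM with the control partner (log2 0.13 ± 0.05, adjusted p = 0.0965, interval 0.03 to 0.24). Without control replicate 2, Slamf1, Tnfrsf4 and Tnfrsf9 passed as higher (adjusted p = 0.0183, 0.0466 and 0.0464), and without shFabp7 replicate 3 Slamf1 passed (0.0488). Slamf1 also passed with RLE scaling (adjusted p = 0.0400). Among all genes the share of calls that were higher was 57.2% with TMM, 71.9% with RLE scaling, 73.1% with DESeq2, 69.3% without a filter, 42.1% with upper-quartile scaling and 33.2% with library totals. The 95% intervals of the other 24 h effects ran from -0.21 to 0.01 for Cd28, from -0.0021 to 0.19 for Tnfrsf4, from -0.01 to 0.19 for Tnfrsf9, from -0.16 to 0.06 for Icos, from -0.11 to 0.10 for Cd27, from -0.17 to 0.19 for Tnfrsf8, from -0.02 to 0.18 for Tnfrsf18 and from -0.10 to 0.12 for Tnfrsf1b.

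The partner effect itself changed between the times for 2 of 9 receptors, against a background of 5.60% of all tested genes, 4.43% with a higher and 1.17% with a lower effect at 48 h. Tnfrsf8 had a partner effect that was 0.46 ± 0.12 larger at 48 h than at 24 h on the log2 scale (interaction contrast, adjusted p = 0.0218). That of Cd28 was 0.26 ± 0.07 larger (adjusted p = 0.0360), with values of 0.16 at 48 h and -0.10 at 24 h. When single libraries were left out, the values stayed at 0.34 to 0.54 for Tnfrsf8 and at 0.15 to 0.29 for Cd28, but most omissions ended the calls. The call of Tnfrsf8 was kept only without control replicate 1 at 24 h, control replicate 1 at 48 h or shFabp7 replicate 2 or 3 at 48 h, and the other omissions gave adjusted p up to 0.153. The call of Cd28 was kept only without control replicate 1 or shFabp7 replicate 3 at 48 h, and the other omissions gave adjusted p up to 0.292. With upper-quartile scaling neither passed (adjusted p = 0.0607 for Tnfrsf8 and 0.15 for Cd28). Of all genes called, 79.0% had a higher effect at 48 h with TMM and 48.9% with upper-quartile scaling, with 61.9% for library totals and 58.6% without a filter. For Icos, Tnfrsf9 and Tnfrsf1b the change was 0.17 ± 0.08, 0.16 ± 0.07 and -0.15 ± 0.07 (adjusted p = 0.198, 0.185 and 0.262), so the 48 h call of Tnfrsf9 was not shown to differ from 24 h.

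Between 24 and 48 h the receptors moved apart, and Cd27 fell most. With the shFabp7 partner 4 receptors rose and 4 fell, 8 of 9 against a background of 66.1% (35.9% higher and 30.2% lower). With the control partner 3 rose and 4 fell, 7 of 9 against 67.7% (35.8% higher and 32.0% lower). These shares are near or moderately above the background of a comparison in which most genes changed. The groups did not overlap in 8 of 9 and 7 of 9 receptors, against 71.4% and 68.6% of all tested genes. The median absolute log2 change of the members was 0.37 with shFabp7 and 0.35 with the control partner, against 0.48 and 0.50 over all tested genes.

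**Figure D4:**
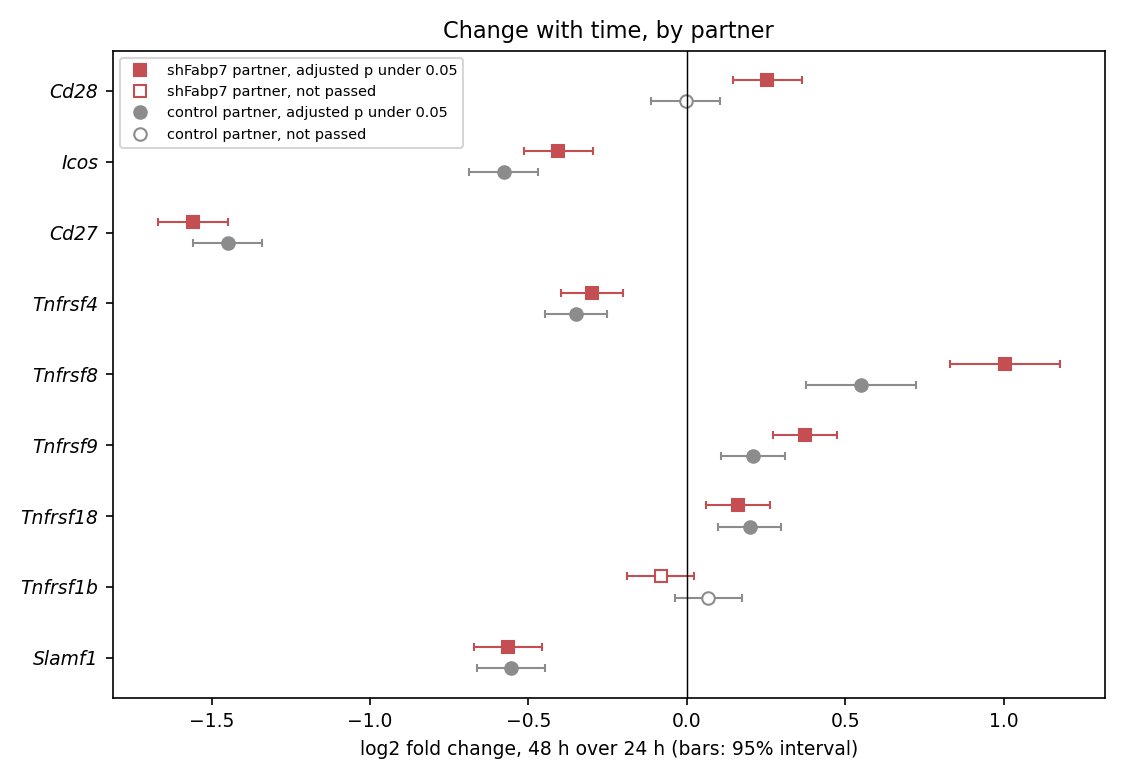
Log2 fold change of each receptor, 48 h over 24 h, with the shFabp7 partner (squares) and the control partner (circles), with 95% intervals; filled symbols passed adjusted p under 0.05. Cd27 lies at -1.56 and -1.45, Tnfrsf8 at 1.00 and 0.55, and Tnfrsf1b passed with neither partner.

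Cd27, the receptor of CD70 on resting T cells, had 55.8, 57.2 and 60.6 CPM at 48 h with the shFabp7 partner, against 166, 168 and 177 CPM at 24 h. With the control partner it had 67.2, 60.5 and 60.6 CPM at 48 h, against 175, 166 and 173 CPM at 24 h. All 6 libraries at 48 h lay far below all 6 at 24 h. The log2 fold change was -1.56 ± 0.05 (adjusted p = 1.1e-22) with shFabp7 and -1.45 ± 0.05 (adjusted p = 7.1e-22) with the control partner, and it passed in 14 of 14 other settings with each.

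Slamf1 and Icos fell with both partners. Slamf1 fell by 0.56 ± 0.05 on the log2 scale with shFabp7 (adjusted p = 2.3e-11) and by 0.56 ± 0.05 with the control partner (adjusted p = 3.3e-11), from the 24 h and 48 h values given above. Icos had 204, 197 and 203 CPM at 48 h with shFabp7, against 265, 264 and 270 CPM at 24 h, and 170, 184 and 202 CPM at 48 h with the control partner, against 280, 283 and 267 CPM at 24 h. It fell by 0.41 ± 0.05 and 0.58 ± 0.05 on the log2 scale (adjusted p = 3.9e-08 and 1.6e-11). Tnfrsf4 fell by 0.30 ± 0.05 with shFabp7 and by 0.35 ± 0.05 with the control partner (adjusted p = 1.8e-06 and 1.0e-07). No library of these 3 genes at 48 h reached a library of the same partner at 24 h.

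Tnfrsf8, Tnfrsf9 and Tnfrsf18 rose with both partners. Tnfrsf8 rose by 1.00 ± 0.08 on the log2 scale with shFabp7 and by 0.55 ± 0.08 with the control partner (adjusted p = 9.3e-12 and 1.4e-06). Tnfrsf9 rose by 0.37 ± 0.05 and 0.21 ± 0.05 (adjusted p = 5.3e-08 and 4.1e-04). Tnfrsf18 had 293, 305 and 301 CPM at 48 h with shFabp7, against 264, 273 and 268 CPM at 24 h, and 296, 286 and 291 CPM at 48 h with the control partner, against 251, 269 and 242 CPM at 24 h. It rose by 0.16 ± 0.05 and 0.20 ± 0.05 (adjusted p = 0.00466 and 6.5e-04), and the first call was lost without shFabp7 replicate 1 at 24 h (adjusted p = 0.0749).

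Cd28 rose with the shFabp7 partner (log2 0.25 ± 0.05, adjusted p = 8.4e-05) and was at -0.0039 ± 0.05 with the control partner (adjusted p = 0.953, interval -0.11 to 0.10). With library totals as scaling, under which the median of all tested genes was 0.23 against 0.04 with TMM, Cd28 passed as higher with the control partner as well (0.19, adjusted p = 0.00262), a value below that median. Tnfrsf1b was at -0.08 ± 0.05 and 0.07 ± 0.05 (adjusted p = 0.167 and 0.252), and with the shFabp7 partner it passed as lower without shFabp7 replicate 2 at 24 h (adjusted p = 0.0372), in a fit of the compared groups alone (0.0229), with DESeq2 (0.0411) and with RLE scaling (0.0491). With the control partner it passed as higher with upper-quartile scaling (0.17, adjusted p = 0.00438) and library totals (0.26, adjusted p = 3.5e-05). With library totals 66.4% and 67.2% of the called genes were higher at 48 h with the shFabp7 and the control partner, against 54.3% and 52.8% with TMM.

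Markers of T cell subsets moved with time beside these receptors. Foxp3, the factor of regulatory T cells, averaged 28.2 ± 2.31 CPM at 48 h with shFabp7 against 140 ± 3.76 CPM at 24 h, and 27.6 ± 5.76 CPM at 48 h with the control partner against 141 ± 6.90 CPM at 24 h (SD, n = 3). Of the regulatory T cell list 3 of 5 fell with each partner and 1 rose with shFabp7. Of the 10 T cell markers 3 rose and 6 fell with each partner, and the median of their log2 changes was -0.44 with shFabp7 and -0.41 with the control partner, against 0.06 and 0.04 over all tested genes. Cd8a and Cd8b1 fell by 1.29 ± 0.05 and 0.86 ± 0.05 on the log2 scale with shFabp7, and likewise with the control partner (-1.13 ± 0.05 and -0.80 ± 0.05). Thy1 rose by 0.86 ± 0.05 with shFabp7, and averaged 639 CPM at 48 h and 437 CPM at 24 h with the control partner. Lck fell by 0.65 ± 0.05 with the control partner, and averaged 360 CPM at 48 h and 564 CPM at 24 h with shFabp7. Cd4, chosen after its values were seen, rose by 0.39 ± 0.05 with shFabp7 and by 0.29 ± 0.05 with the control partner. Markers of other cells moved as well. With shFabp7 the B cell list summed to 17.99 to 19.2 CPM at 48 h against 10.3 to 13.5 CPM at 24 h, and the dendritic cell list to 14.6 to 16.2 CPM against 6.85 to 8.14 CPM. With the control partner the B cell list summed to 18.5 to 22.2 CPM at 48 h against 11.7 to 13.4 CPM at 24 h, and the dendritic cell list to 15.2 to 16.5 CPM against 7.10 to 8.39 CPM. The sums of the platelet list and of the epithelial or mesenchymal list were also higher at 48 h, without overlap, with each partner. Of the latter list 3 genes rose, among them Col1a1 and Pmel, and 1 fell with shFabp7, and 2 rose and 0 fell with the control partner. Epcam, named after its values were seen, averaged 2.65 CPM at 48 h and 4.58 CPM at 24 h with shFabp7. With the control partner it averaged 3.53 and 4.17 CPM. Among single genes Zbtb46 (dendritic cells) and Cd79b (B cells) rose by 1.37 ± 0.11 and 1.08 ± 0.13 with shFabp7 and by 1.33 ± 0.10 and 1.27 ± 0.12 with the control partner, and Lyz2 fell by 1.30 ± 0.24 and 0.93 ± 0.22. Of the dendritic cell list 1 gene rose and 1 fell with each partner, the latter Flt3 (-0.65 ± 0.23 with shFabp7, -0.62 ± 0.22 with the control partner). Most of that list's sum was Zbtb46, which averaged 14.3 CPM at 48 h and 5.52 CPM at 24 h with shFabp7. Of the B cell list 3 rose and 1 fell with shFabp7, the latter Ms4a1 (-0.98 ± 0.32). With the control partner 2 of that list rose and 0 fell. The part of these cell types in the receptor changes over time was not tested.

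Across the 4 groups the orders of the levels differed by gene. Cd28 was ordered shFabp7 at 48 h, control at 24 h, control at 48 h and shFabp7 at 24 h, and each group overlapped the next. Tnfrsf8 and Tnfrsf9 were ordered shFabp7 at 48 h, control at 48 h, shFabp7 at 24 h and control at 24 h, and only the last pair overlapped. Tnfrsf18 had the same order, with overlap between the partners at each time. Tnfrsf4 and Slamf1 were ordered shFabp7 at 24 h, control at 24 h, shFabp7 at 48 h and control at 48 h, with no overlap between neighbours. Icos and Cd27 separated the times and overlapped between the partners, and in Tnfrsf1b all neighbours overlapped.

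Compared per kilobase of exon (GENCODE M21 lengths, GRCm38), Tnfrsf4 and Tnfrsf18 were the most abundant of the 9 receptors and Tnfrsf8 the least. Tnfrsf4 had 194 and Tnfrsf18 197 CPM per kb with the shFabp7 partner at 48 h, so they lay close together, against 175 and 191 CPM per kb with the control partner. At 24 h Tnfrsf4 led with 238 CPM per kb with shFabp7 and 223 CPM per kb with the control partner. Tnfrsf8 had 12.5 CPM per kb with shFabp7 and 9.02 CPM per kb with the control partner at 48 h, and 6.22 and 6.15 CPM per kb with these partners at 24 h. Slamf1 and Tnfrsf8 were at 13.6 and 12.5 CPM per kb at 48 h with shFabp7, against 20.2 and 6.22 CPM per kb at 24 h.

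**Figure D5:**
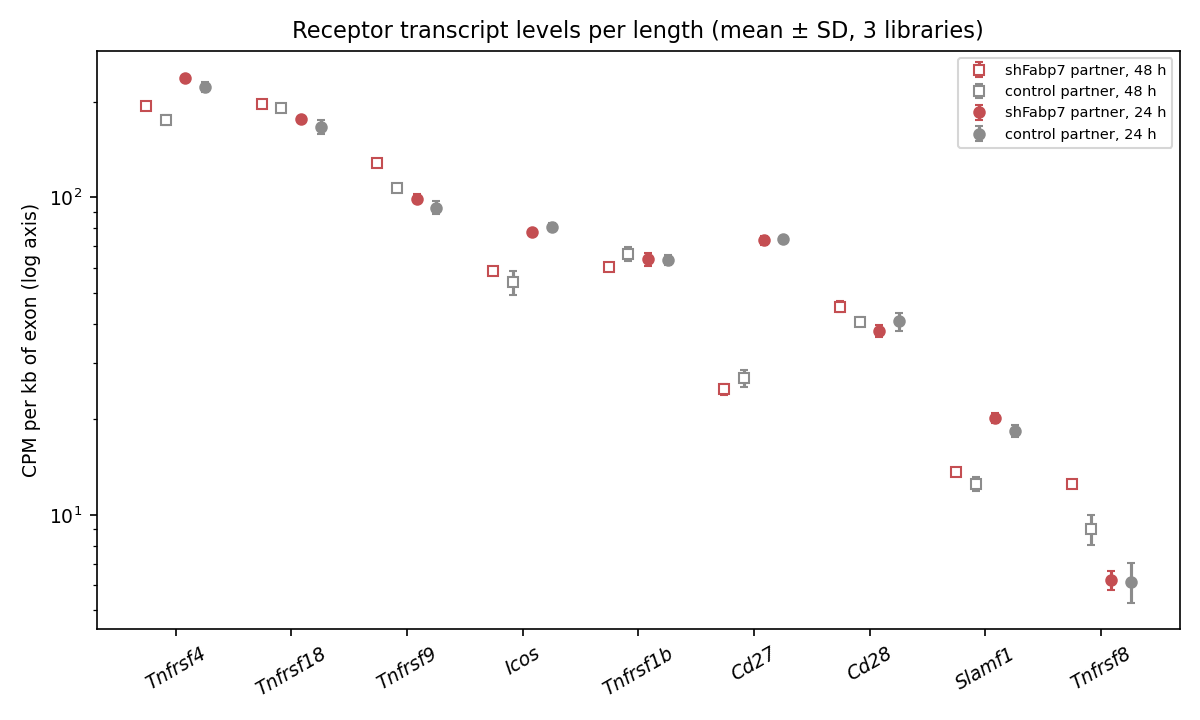
Mean level of each receptor per kb of exon (log axis, CPM per kb, bars SD of 3 libraries) in the 4 groups; open squares 48 h, filled circles 24 h, red shFabp7 and grey control partner. Tnfrsf4 and Tnfrsf18 lie at the top and Tnfrsf8 at the bottom, and Cd27 lies at 24.9 and 27.0 at 48 h, far below its 73.2 and 73.6 at 24 h, with the shFabp7 and control partner.

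Several of the receptors' ligands, some of which activated T cells also make, were higher with the shFabp7 partner at 48 h. Of 10 ligand genes 9 were tested, and 6 rose and 1 fell, against 19.9% higher and 11.6% lower among all tested genes. The 1 that fell, named after its values were seen, was Cd86 (log2 -0.38 ± 0.12, adjusted p = 0.0157). The median log2 fold change of the ligands was 0.25 against 0.01 over all tested genes. Cd70, the ligand of CD27, averaged 3.12 ± 0.364 CPM with shFabp7 and 1.97 ± 0.366 CPM with the control partner (log2 0.66 ± 0.22, adjusted p = 0.0188). Tnfsf9, the 4-1BB ligand, averaged 7.52 ± 0.797 and 5.33 ± 0.303 CPM with these partners (log2 0.49 ± 0.13, adjusted p = 0.00253). Lta, lymphotoxin alpha, which binds TNF receptors, averaged 391 ± 3.38 and 298 ± 21.7 CPM (log2 0.39 ± 0.05, adjusted p = 5.2e-07). Tnfsf8, the CD30 ligand, chosen after its values were seen, averaged 254 ± 0.569 CPM with shFabp7 and 214 ± 4.39 CPM with the control partner (log2 0.25 ± 0.05, adjusted p = 3.2e-04). Tnfsf18, the GITR ligand, had at most 1 count in a group and was not tested.

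At 24 h 2 ligands rose and 2 fell with shFabp7, against 6.22% higher and 4.65% lower among all tested genes. Cd86 and Cd80, the ligands of CD28, fell by 0.46 ± 0.12 and 0.33 ± 0.11 on the log2 scale (adjusted p = 0.0108 and 0.0396), and Tnf rose by 0.19 ± 0.06 (adjusted p = 0.0309). Over time 6 rose and 3 fell with shFabp7, and 4 rose and 3 fell with the control partner, against 66.1% and 67.7% of all tested genes called. With shFabp7, Cd70, Cd80 and Tnfsf4 (the OX40 ligand) rose by 2.33 ± 0.26, 1.81 ± 0.10 and 1.74 ± 0.12 on the log2 scale. Thus Cd70 was higher at 48 h where its receptor gene Cd27 was lower, and Tnfsf4 was higher where Tnfrsf4 was lower. Other pairs rose together with shFabp7. Cd80 rose where Cd28 rose by 0.25 ± 0.05. Cd86, the other CD28 ligand, was lower at 48 h, at 6.25 CPM against 8.16 CPM at 24 h. Tnfsf9 averaged 7.52 CPM at 48 h and 4.62 CPM at 24 h where Tnfrsf9 rose by 0.37 ± 0.05. Tnfsf8 went the other way, with 254 CPM at 48 h and 499 CPM at 24 h where Tnfrsf8 rose by 1.00 ± 0.08. Icosl, the ICOS ligand, averaged 8.16 CPM at 48 h and 6.10 CPM at 24 h where Icos was at -0.41 ± 0.05. These pairs were chosen after the values were seen. With the control partner Tnfsf4 and Cd70 rose by 1.90 ± 0.12 and 1.78 ± 0.27, and Tnf fell by 1.34 ± 0.06. Cd80 averaged 18.1 CPM at 48 h and 7.88 CPM at 24 h with this partner, where Cd28 was at -0.0039 ± 0.05. The partner effect on Cd80 turned sign: it was 0.27 ± 0.09 at 48 h (adjusted p = 0.0153) and -0.33 ± 0.11 at 24 h, a change of 0.60 ± 0.14 (adjusted p = 0.00748). That on Lta was larger at 48 h than at 24 h by 0.25 ± 0.07 (adjusted p = 0.0386).

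Of 18 genes for TRAF adaptors and NF-kB, which act below the TNF receptors, 6 rose and 3 fell with shFabp7 at 48 h, against 31.6% of all tested genes called (19.9% higher and 11.6% lower). At 24 h 4 rose and none fell, against 10.9% (6.22% higher and 4.65% lower). At 48 h the NF-kB subunit genes Nfkb1 and Nfkb2 rose by 0.41 ± 0.06 and 0.37 ± 0.06, and Birc2, a ubiquitin ligase bound by TRAF2, fell by 0.29 ± 0.06 on the log2 scale. At 24 h Nfkb2, Rela and Nfkb1 rose by 0.25 ± 0.06, 0.23 ± 0.06 and 0.18 ± 0.06. The median of the list was 0.04 at 48 h and 0.08 at 24 h, against 0.01 and 0.00 over all tested genes, and no gene of it passed for the change of the partner effect. Over time 4 rose and 10 fell with shFabp7, and 5 rose and 9 fell with the control partner, against 66.1% and 67.7% of all tested genes called. Traf1, an adaptor that binds 4-1BB and TNF receptor 2, rose by 0.74 ± 0.05 and 0.59 ± 0.05, and Traf3, which restrains the non-canonical NF-kB pathway, fell by 0.59 ± 0.05 and 0.55 ± 0.05 on the log2 scale.

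The kinases and adaptors below CD28, ICOS and SLAM were called about as often as other genes at 48 h: 4 were higher and 1 lower of 15 tested, against 31.6% of all tested genes. At 24 h 2 were higher and 3 lower, against 10.9%. Akt1, a kinase fed by phosphoinositide 3-kinase, rose by 0.41 ± 0.05, Grb2 rose by 0.20 ± 0.05 and Grap2, an adaptor bound by CD28, fell by 0.25 ± 0.05 at 48 h on the log2 scale. At 24 h Pik3r1, the regulatory subunit of phosphoinositide 3-kinase, Pik3cg and Grap2 fell by 0.20 ± 0.05, 0.18 ± 0.06 and 0.17 ± 0.05. The partner effect was higher at 48 h than at 24 h for Pik3r1, Pik3cg and Akt1 (0.29 ± 0.07, 0.28 ± 0.08 and 0.24 ± 0.07). Over time 4 rose and 8 fell with shFabp7, and 4 rose and 10 fell with the control partner, against 66.1% and 67.7% of all tested genes called. Sh2d1a, which encodes the SLAM adaptor SAP, rose by 1.01 ± 0.08 and 0.86 ± 0.08, while Slamf1 itself fell, and Prkcq, a kinase of the CD28 pathway, fell by 1.79 ± 0.05 and 1.87 ± 0.05.

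Other receptors of the 2 larger families were compared as well. Of 17 further TNF receptor family genes tested, 3 rose and 3 fell with shFabp7 at 48 h, close to the 31.6% of all tested genes called, and 1 rose and 3 fell at 24 h, against 10.9%. Tnfrsf10b, the TRAIL death receptor, rose by 0.32 ± 0.06 at 48 h and by 0.36 ± 0.06 at 24 h. The genes that fell at 24 h were Tnfrsf23 and Cd40 (by 0.50 ± 0.16 and 0.30 ± 0.10 on the log2 scale) and, named after its values were seen, Tnfrsf26 (by 0.25 ± 0.07). The genes that fell at 48 h, named after their values were seen, were Tnfrsf14, Fas and Tnfrsf26 (-0.30 ± 0.06, -0.29 ± 0.07 and -0.26 ± 0.07). At 48 h Eda2r rose by 0.65 ± 0.21 and Tnfrsf19 by 1.37 ± 0.33. Tnfrsf19 averaged 1.66 ± 0.182 CPM with shFabp7 and 0.638 ± 0.15 CPM with the control partner, so it met the level minimum for naming in the shFabp7 group alone. Over time 8 rose and 6 fell with shFabp7, and 9 rose and 5 fell with the control partner, against 66.1% and 67.7% of all tested genes. Tnfrsf14, which binds LIGHT and BTLA, fell by 1.44 ± 0.06 and 1.27 ± 0.06. Of 14 further SLAM family and accessory receptor genes, 3 rose and 4 fell at 48 h, and 2 rose and 1 fell at 24 h, against the same 31.6% and 10.9%. Slamf6, a relative of Slamf1 that also uses SAP, fell by 0.48 ± 0.05 at 48 h and by 0.22 ± 0.05 at 24 h on the log2 scale. The change of this effect passed (-0.26 ± 0.08, adjusted p = 0.0401), as did that of Crtam (-0.36 ± 0.09, adjusted p = 0.0101). Slamf7 and Cd5 rose at both times, by 0.24 ± 0.06 and 0.23 ± 0.05 at 48 h and by 0.24 ± 0.06 and 0.20 ± 0.05 at 24 h.

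Genes whose pattern over the 12 libraries was most like that of each receptor were found by the root mean square (RMS) difference of log2 CPM after each gene was centred on its own mean, among 11340 candidates. The closest to Tnfrsf8 were Arhgap21 and C2cd2l (RMS difference 0.10 and 0.10), and the closest to Tnfrsf9 were Rnh1 and Prelid1 (0.04 and 0.05). For Cd27 they were Tapbp, the tapasin gene of MHC class I loading, and Cxcr3, a chemokine receptor of effector T cells (0.07 and 0.08). For Cd28 they were Anxa7 and Clasp2, for Icos Tm9sf3 and Hnrnph2, for Tnfrsf4 Nmt1 and Elob, for Tnfrsf18 Ndfip2 and Tmpo, for Tnfrsf1b Xylt2 and Pofut1, and for Slamf1 Cdc5l and the splicing factor gene Srsf1, at 0.03 to 0.05. The median candidate differed by 0.27 to 0.75. Tnfrsf1b, Tnfrsf18 and Cd28 varied little themselves (SD of log2 CPM 0.07, 0.11 and 0.11, against 0.79 for Cd27). A gene that hardly changed therefore also lies close to them. Among the receptors themselves Icos and Slamf1 were the closest (0.10), followed by Tnfrsf9 and Tnfrsf18 (0.10). These values describe the same 12 libraries and carry no test.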

How the data were processed

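The authors deposited RNA-seq counts of reads for each gene symbol, unscaled and with 1 column per library. HTSeq 0.6.1p1, TopHat2 2.0.13, CASAVA 1.8.2 and the build GRCm39 are named per the submitters' processing notes. The sources used here give neither their settings nor the strand mode, so how reads of overlapping genes were assigned is not known. The annotation at hand was of GRCm38 and served only for lengths and overlaps, looked up by symbol. All 12 columns were matched to samples by library name. Genes were kept with filterByExpr (minimum count 10, minimum total 15), scaled by TMM and tested with edgeR 4.0.16 quasi-likelihood (robust, 1 coefficient per group, all 12 libraries) run under R 4.3.3. P-values were adjusted over 16945 genes by Benjamini-Hochberg, and the threshold was 0.05. Adjusted p-values are from this test unless another is named, and fold changes are log2 ± SE. SE is the log2 fold change divided by the root of the F statistic. The test was also run on simulated counts with fewer changed genes than were called here, so that run cannot speak to the choice of scaling.

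The receptors and gene lists were chosen with earlier results of these data known. From each list at most 3 called genes per comparison were named, by size of change, among those averaging 1 CPM or more in at least 1 of the groups compared, or the most abundant gene where none was called. The listed symbol Rltpr was not found. For each receptor the 2 genes with the most similar pattern were named, leaving out predicted genes and antigen receptor segments. Alternatives were DESeq2 1.42.0, other scalings and filters, the compared groups alone, a replicate block and leaving out each library. No pair of replicates was a duplicate: chi-square over degrees of freedom was 4.34 to 14.4.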

Additional observations from a re-analysis of the deposited data

Results flagged for a closer look

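The partner effect differed between the times, by the interaction contrast, for 2 receptors. The effect on Tnfrsf8 was 0.46 larger at 48 h than at 24 h on the log2 scale, and that on Cd28 was 0.26 larger. For Tnfrsf8 the effect was 0.47 at 48 h and 0.01 at 24 h, and for Cd28 it was 0.16 at 48 h and -0.10 at 24 h. The 24 h effects did not pass on their own (adjusted p = 0.953 for Tnfrsf8 and 0.242 for Cd28, edgeR quasi-likelihood). Tnfrsf8 passed in 10 of 19 other settings and Cd28 in 5 of 19, and both kept the sign in all 19. The Tnfrsf8 group at 24 h with the control partner held 17.8 CPM in replicate 1, against 22.8 and 23.3 CPM in the others.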

How the results depend on the processing

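Of 675 other values of single receptors, 583 kept direction and side of the threshold, 43 lost the call, 20 gained one and 29 changed sign. At 48 h the calls of Tnfrsf8 and Tnfrsf9 held in all 14 other settings each. The number of receptors called for the partner at 24 h was 2 with DESeq2 and 1 with RLE scaling, against 0 with edgeR and TMM. For the change of the partner effect it was 1 with RLE scaling, library totals or no filter and 0 with upper-quartile scaling, against 2. When 1 library was left out, 0 to 3 receptors passed at 24 h, 2 to 5 at 48 h, 0 to 2 for the change of the effect, 7 to 9 over time with shFabp7 and 7 with the control partner. Over all genes the counts were then 949 to 2525, 4300 to 5454, 319 to 1680, 10612 to 10799 and 10908 to 11281, in the same order. The 24 h count was lowest without control replicate 1. For the change of the effect, 1680 genes passed without control replicate 1 at 48 h, and 319 to 649 without any other single library, against 949.

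Signs turned in effects that were not called. At 24 h Cd27 was at 0.019 with DESeq2, 0.019 with RLE scaling and 0.016 without a filter, Tnfrsf8 at -0.013 with upper-quartile scaling and -0.030 with library totals, and Tnfrsf1b at -0.015 and -0.033 under these scalings. At 48 h Tnfrsf18 was at -0.044 with upper-quartile scaling and -0.043 with library totals, and the change of the effect on Tnfrsf4 was -0.010 with the first. Over time with the control partner Cd28 was at 0.097 with upper-quartile scaling, 0.19 with library totals, 0.0043 without a filter and 0.025 with the stricter filter. With shFabp7 Tnfrsf1b was at 0.067 with library totals over time. With 1 library left out, the 24 h effect ran from -0.018 to 0.032 for Cd27, from -0.085 to 0.10 for Tnfrsf8 and from -0.0079 to 0.061 for Tnfrsf1b. The change of the effect ran from -0.030 to 0.071 for Tnfrsf4 and from -0.098 to 0.029 for Slamf1, and the change of Cd28 over time with the control partner from -0.028 to 0.069. The cause was not tested.

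Libraries of the same replicate number did not deviate together from their group means (correlations from -0.067 to 0.010). For other numbers the correlations ran from -0.038 to 0.074. Such values cannot show whether same-numbered libraries shared a mouse, culture or day. With the replicate block the number of receptors called at 48 h was 4, against 5, and 862 genes were called for the change of the effect, against 949. Library totals gave a median of all genes over time of 0.21 with shFabp7 and 0.23 with the control partner, against 0.06 and 0.04 with TMM.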

Other observations

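Summed over the 9 receptors, the transcript level was 1805.5 ± 10.3 CPM with the shFabp7 partner and 1679 ± 9.90 CPM with the control partner at 48 h, and 1921 ± 5.03 CPM with shFabp7 and 1883 ± 41.2 CPM with the control partner at 24 h (SD, n = 3). The sum hides opposite changes of single receptors. The ratio of Tnfrsf9 to Cd27 counts within a library, which does not depend on how libraries are scaled, was 6.41, 6.01 and 5.67 with shFabp7 at 48 h, against 4.36, 4.93 and 4.68 with the control partner. At 24 h it was 1.56, 1.63 and 1.55 with shFabp7, against 1.39, 1.60 and 1.44 with the control partner. The ratio of Tnfrsf8 to Cd28 counts was 0.158, 0.151 and 0.159 with shFabp7 at 48 h, against 0.146, 0.112 and 0.119 with the control partner. At 24 h it was 0.0878, 0.101 and 0.0889 with shFabp7, against 0.0753, 0.0934 and 0.0872 with the control partner. In both ratios the partner groups were apart at 48 h and overlapped at 24 h. These ratios were chosen after the values were seen and carry no test.

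Inhibitory relatives of these receptors were mixed. Of 11 tested genes 3 rose and 2 fell with shFabp7 at 48 h, against 31.6% of all tested genes called, and none rose and 1 fell at 24 h, against 10.9%. Cd160, Tigit and Btla rose at 48 h by 0.40 ± 0.10, 0.31 ± 0.05 and 0.24 ± 0.07 on the log2 scale (edgeR, adjusted p = 0.00182, 2.1e-05 and 0.00699). Those that fell at 48 h, named after their values were seen, were Vsir and Cd96 (-0.24 ± 0.05 and -0.19 ± 0.06, adjusted p = 2.2e-04 and 0.0144). Cd96 also fell at 24 h, by 0.24 ± 0.06 (adjusted p = 0.0151). The partner effect on Tigit was 0.26 ± 0.08 higher at 48 h than at 24 h (adjusted p = 0.0342), and that on Vsir changed by -0.32 ± 0.07 (adjusted p = 0.00391). Over time 6 rose and 3 fell with shFabp7, and 4 rose and 4 fell with the control partner, against 66.1% and 67.7% of all tested genes called. Havcr2 and Lag3, markers of strongly stimulated T cells, rose by 1.63 ± 0.11 and 1.00 ± 0.05 with shFabp7 and by 1.38 ± 0.11 and 1.06 ± 0.05 with the control partner. Vsir fell by 1.36 ± 0.05 and 1.05 ± 0.05 on the log2 scale.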
